A study of Mus musculus with 6 samples.

Results

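The genes described here are 10 genes of the YAP and TEAD pathway, found by their symbols among the 16603 genes of a count table of mouse liver RNA. All 10 were in the table and passed the filter on low counts, Ankrd1 only through the group where it was high. The 10 genes were chosen by name with earlier results of these data known, so their shares of calls are not a test of enrichment. Of them, 7 are pathway components and 3 are targets. The components are the effectors Yap1, Wwtr1 and Tead1 and the regulators Wwc1, Lats2, Amotl2 and Ajuba. The targets are Ankrd1, Ccn1 and Ccn2 (older symbols Cyr61 and Ctgf). Bulk liver RNA was sequenced in 6 libraries. The labels call 3 of them wild-type and 3 Mdr2-knockout, and they are named here as wild-type-labelled and knockout-labelled libraries. Mdr2 is the older name of Abcb4, which exports phosphatidylcholine from hepatocytes to bile, and mice without it develop long-standing bile duct injury. The labels give tissue and genotype only, with no age, sex, strain, allele or treatment, and do not tell whether a group held separate animals. The p-values therefore reflect only how far these libraries spread, part of which may be technical. The study asked how hepatic progenitor cells expand and form bile duct cells.

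YAP (Yap1) and its paralog TAZ (Wwtr1) are transcriptional coactivators that have no DNA-binding domain of their own and act through the TEAD transcription factors. The Hippo kinase cascade, in which MST kinases activate LATS kinases, phosphorylates YAP and TAZ and keeps them out of the nucleus, so that their activity is set largely at the protein level, which RNA counts do not measure. In liver, YAP is known for its part in bile duct formation, organ size and the response to injury, and it is also active in stellate and endothelial cells. Several of its targets, among them Lats2, Amotl2 and Ajuba, themselves act on the cascade.

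Library totals ran from 17100393 to 18124467 counts, and 12612 genes were tested with edgeR's quasi-likelihood test at a Benjamini-Hochberg adjusted p under 0.05. Levels are given as CPM (counts per 1000000 of the TMM-scaled library size), and every log2 fold change is knockout-labelled over wild-type-labelled. Values with ± are the mean and SD of a group of 3 libraries. Abcb4 stood at 330, 369 and 273 CPM in wild-type-labelled replicates 1, 2 and 3 and at 500, 513 and 434 CPM in knockout-labelled replicates 1, 2 and 3, so the count of the targeted gene went against its label (edgeR log2 fold change 0.57, SE 0.12, adjusted p = 0.00389). The labels do not say which part of the gene the allele removes, and the count covers the whole gene, so it cannot check the genotype. In the deposited tables the columns are headed only by M or N and a number. Those with M were read as Mdr2-knockout, since M begins only those titles, and those with N as wild-type, the group left over. Every direction below rests on that reading, which the count of the targeted gene does not bear out. Scaling matters for small changes: with total-count scaling in place of TMM, log2 fold changes of the tested genes moved up by a median of 0.29. The share of called genes that were higher went from 56.2% with TMM to 67.2% with upper-quartile and 94.7% with total-count scaling. Values below are with TMM unless another scaling is named. For the 10 genes, total-count values are also given where the call or the sign differs.

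The liver label matched the defining markers, with the hepatocyte gene Alb at 81231 CPM or more in the wild-type-labelled and 48643 CPM or more in the knockout-labelled libraries. Marker levels of several cell types differed between the groups. The summed level of 13 cholangiocyte markers was 63.4 to 83.8 CPM in the wild-type-labelled and 404 to 443 CPM in the knockout-labelled libraries, and all 13 were higher. Spp1 alone, named after its values were seen, gave 28.5 to 45.6 and 272 to 310 CPM of these sums. The summed level of 12 stellate cell and fibroblast markers was 241 to 367 and 566 to 681 CPM, with 9 of 12 higher. That of 10 monocyte and macrophage markers was 186 to 325 and 467 to 499 CPM, with 7 of 10 higher. That of 5 mesothelial markers was 1.77 to 2.17 and 4.28 to 5.95 CPM, with 2 of 2 tested genes higher. That of 9 hepatocyte genes was 123767 to 136367 and 76636 to 80662 CPM, with 8 of 9 lower. The sums of endothelial (279 to 333 and 299 to 327 CPM), smooth muscle (12.02 to 29.5 and 24.4 to 32.8 CPM) and lymphocyte markers (2.92 to 4.92 and 3.98 to 5.70 CPM) overlapped between the groups; of their 9, 5 and 2 tested genes, 3, 2 and 0 were higher and 2, 0 and 0 lower. No marker was at 0 in all libraries. The duct markers Cldn4 and Cftr, the smooth muscle marker Cnn1 and the mesothelial marker Lrrn4 were at 0 in at least 1 wild-type-labelled library. In bulk tissue, a change in the number of cells of a type and a change in RNA per cell cannot be told apart, and the part that these shifts play in the values below was not tested.

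The start regions of 5 of the genes are shown because they hold the core TEAD binding motif and belong to genes that moved in both directions. RefSeq promoter windows (build GRCm38.p6), each from 250 bases before to 50 bases after an annotated start, were matched for 8 of the 10 genes, and Tead1 and Ccn2 were not matched. The 250 bases before the start are printed 5′ to 3′ on the gene's strand, with the motif GGAATG, or its reverse complement CATTCC, in capitals.
Ankrd1: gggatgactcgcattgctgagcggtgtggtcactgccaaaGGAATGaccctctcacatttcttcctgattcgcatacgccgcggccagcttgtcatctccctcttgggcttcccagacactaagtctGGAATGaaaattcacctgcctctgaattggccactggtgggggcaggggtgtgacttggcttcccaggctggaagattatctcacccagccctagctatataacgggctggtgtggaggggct
Ccn1: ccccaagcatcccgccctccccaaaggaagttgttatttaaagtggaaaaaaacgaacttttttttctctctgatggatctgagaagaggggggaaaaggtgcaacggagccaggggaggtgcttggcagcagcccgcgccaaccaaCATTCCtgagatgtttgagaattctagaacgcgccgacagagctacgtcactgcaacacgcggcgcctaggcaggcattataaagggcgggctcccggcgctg
Ajuba: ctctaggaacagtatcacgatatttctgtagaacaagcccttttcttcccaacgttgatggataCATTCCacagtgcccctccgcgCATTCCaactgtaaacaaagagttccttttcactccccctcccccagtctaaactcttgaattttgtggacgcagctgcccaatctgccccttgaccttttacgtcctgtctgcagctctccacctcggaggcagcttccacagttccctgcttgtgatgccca
Amotl2: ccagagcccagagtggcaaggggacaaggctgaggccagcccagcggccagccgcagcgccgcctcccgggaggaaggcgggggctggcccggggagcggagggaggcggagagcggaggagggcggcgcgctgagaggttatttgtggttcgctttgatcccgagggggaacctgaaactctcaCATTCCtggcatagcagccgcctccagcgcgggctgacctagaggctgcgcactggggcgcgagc
Wwtr1: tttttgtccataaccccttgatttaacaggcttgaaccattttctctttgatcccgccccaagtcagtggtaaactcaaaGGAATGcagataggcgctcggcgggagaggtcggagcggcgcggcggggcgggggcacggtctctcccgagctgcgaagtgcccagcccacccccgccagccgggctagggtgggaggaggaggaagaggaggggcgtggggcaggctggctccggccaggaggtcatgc

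These stretches lie at chr19:36119845-36120094 (Ankrd1, minus strand), chr3:145649986-145650235 (Ccn1, minus), chr14:54577662-54577911 (Ajuba, minus), chr9:102717554-102717803 (Amotl2, plus) and chr3:57575877-57576126 (Wwtr1, minus, the first of 2 overlapping windows). Ankrd1 and Ajuba each held the motif at 2 places, which began 210 and 123 bases before the start in Ankrd1 and 186 and 164 bases before it in Ajuba. Ccn1 held it 103 bases, Amotl2 65 bases, Wwtr1 170 bases and Yap1 141 bases before the start. In Lats2, 1 of 2 windows held it, 5 bases into the transcript that begins at that RefSeq start. The window of Wwc1 did not hold these letters. The gene spans given below are from another annotation, GENCODE. The stretches of Ankrd1 and Amotl2, part of that of Wwtr1 and both windows of Lats2 lie inside those spans. For these genes, before the start thus refers to the RefSeq start only. Thus 7 of the 8 matched genes (87.5%) had the motif in at least 1 window, against 4481 of 27025 genes (16.6%) with a window, 1483 of the 10102 tested genes with one (14.7%), and 4817 of all 32851 windows of this length (14.7%). Among the 8, Ankrd1, Ccn1, Ajuba, Amotl2 and Lats2 were known TEAD targets when the genes were chosen by name. The higher share is therefore not a test of enrichment. A motif match is a description of the letters, not a binding site, and it was present in genes that rose, in Amotl2, which fell, and in Yap1 and Lats2, which did not pass the test.

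**Figure D1:**
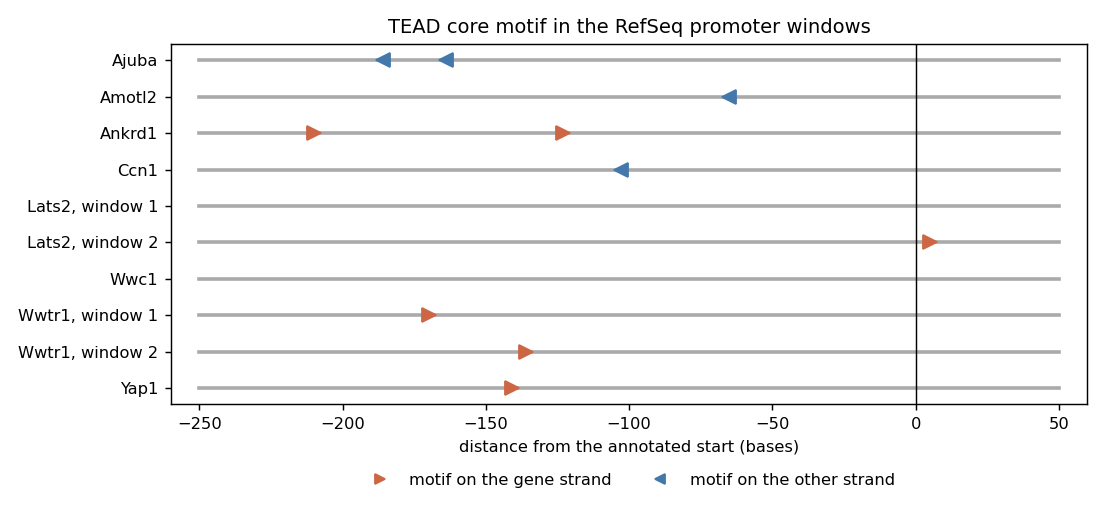
Places of the TEAD core motif in the RefSeq promoter windows of the 8 matched genes; the horizontal axis is the distance in bases from the annotated start, each grey line is 1 window, and triangles mark the motif by strand. Ankrd1 and Ajuba each carry 2 matches, and the window of Wwc1 and 1 of the 2 windows of Lats2 carry none.

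Of the 10 genes, 5 were higher in the knockout-labelled libraries (Wwtr1, Tead1, Ajuba, Ankrd1 and Ccn1), 2 were lower (Wwc1 and Amotl2) and 3 did not pass (Yap1, Lats2 and Ccn2). Over all tested genes, 20.9% were called higher, 16.3% lower and 37.1% in either direction. The groups did not overlap for 8 of the 10 genes, against 51.3% of all tested genes. For 5 of the 10 the knockout-labelled libraries lay above (27.6% of all tested genes) and for 3 below (23.7%). The median log2 fold change was -0.08 over the 7 components, 0.91 over the 3 targets and 0.01 over all tested genes. Lats2, Amotl2 and Ajuba, which are also targets, were counted with the components. With total-count scaling 7 of the 10 were called higher, Yap1 and Ccn2 in addition to the 5, and 1 lower, Wwc1, against 47.1% and 2.62% of all tested genes. The median over the components then turned from below to above 0, at 0.21, with 1.21 over the targets and 0.30 over all tested genes.

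**Figure D2:**
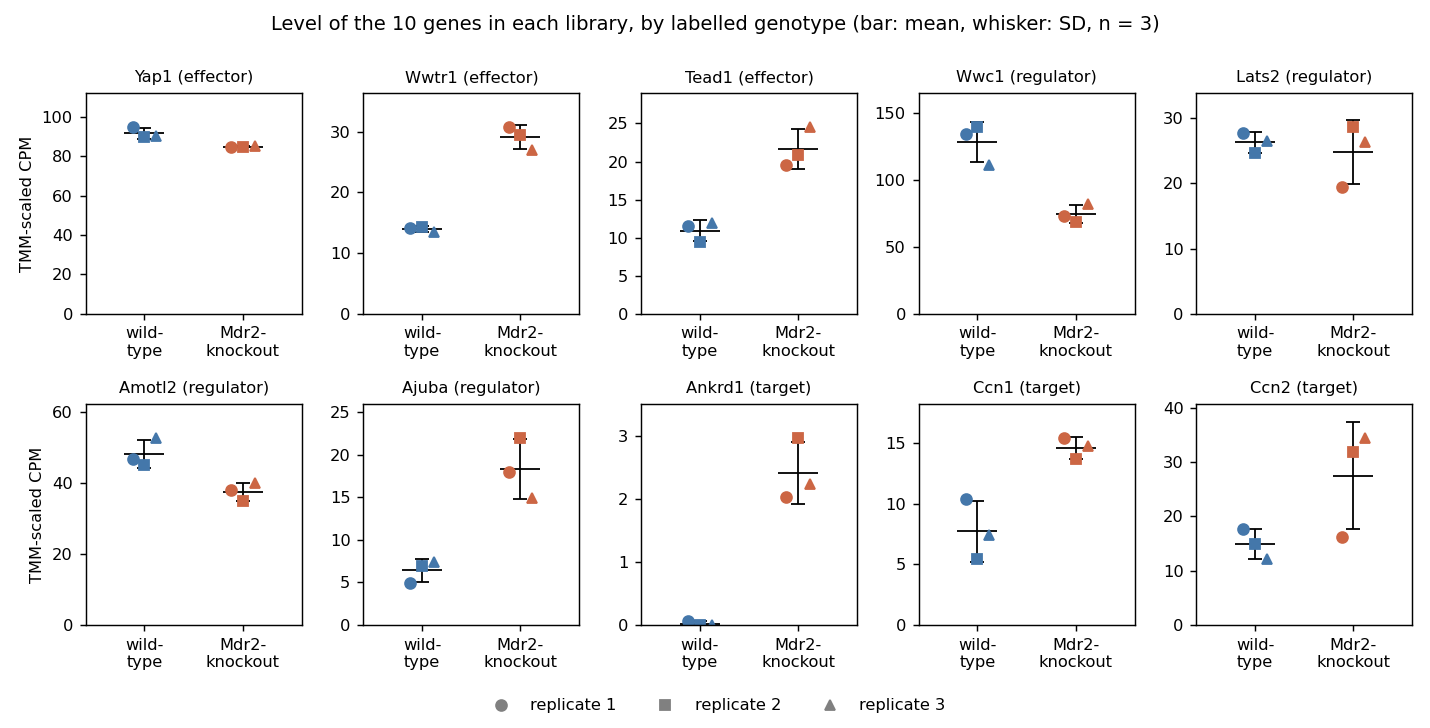
TMM-scaled CPM of each of the 10 genes in each library, by labelled genotype; each vertical axis starts at 0, symbols are replicates 1 to 3, and the bar and whisker are the mean and SD (n = 3). Wwtr1, Tead1, Ajuba, Ankrd1 and Ccn1 lie higher in every knockout-labelled library, Wwc1 and Amotl2 lower, and the Ccn2 value of knockout-labelled replicate 1 lies among the wild-type-labelled values.

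Among the effectors, TAZ and TEAD1 transcripts roughly doubled with TMM, while those of YAP did not pass the test and took a sign that depended on the scaling. Wwtr1, the gene of TAZ (chromosome 3, 57455649 to 57575910, minus strand, GRCm38), stood at 14.2, 14.2 and 13.4 CPM in wild-type-labelled replicates 1, 2 and 3 and at 30.8, 29.5 and 27.0 CPM in knockout-labelled replicates 1, 2 and 3. Every knockout-labelled library lay above every wild-type-labelled library, and the change was 1.06 on the log2 scale (SE 0.09, edgeR adjusted p = 2.22e-05). Tead1, which encodes a DNA-binding partner of YAP and TAZ (chromosome 7, 112679318 to 112906807, plus strand), was at 11.6, 9.39 and 11.9 CPM in the wild-type-labelled and 19.5, 20.9 and 24.6 CPM in the knockout-labelled libraries. The groups again did not overlap (edgeR log2 fold change 0.98, SE 0.13, adjusted p = 0.000303). Both calls held in each of the 14 alternative analyses, with log2 fold changes of 1.35 for Wwtr1 and 1.28 for Tead1 under total-count scaling.

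Yap1 (chromosome 9, 7931999 to 8004596, minus strand) was at 95.2, 89.7 and 90.3 CPM in the wild-type-labelled and 84.8, 85.0 and 85.2 CPM in the knockout-labelled libraries. The knockout-labelled libraries lay just below the others without overlap, and the gene did not pass (edgeR log2 fold change -0.11, SE 0.06, adjusted p = 0.189). With total-count scaling the sign turned and the gene was called higher (log2 fold change 0.18, edgeR adjusted p = 0.0433). On the deposited FPKM scale, which is scaled by library totals, Yap1 was likewise at 19.8 ± 0.982 FPKM in the wild-type-labelled and 22.5 ± 0.141 FPKM in the knockout-labelled libraries (SD, n = 3). Its spread over the knockout-labelled libraries, 0.208% of the mean in CPM, was below the 2.44% that counting error alone gives at this depth.

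Ratios within a library do not depend on how libraries are scaled. The FPKM of Wwtr1 was 0.130, 0.139 and 0.130 times that of Yap1 in wild-type-labelled replicates 1, 2 and 3, and 0.318, 0.304 and 0.278 times in knockout-labelled replicates 1, 2 and 3. The ratio was higher in each knockout-labelled library than in any wild-type-labelled library, at 0.300 ± 0.0204 against 0.133 ± 0.00496 (SD, n = 3). A two-sided exact permutation test gave p = 0.1, the smallest that 3 libraries against 3 allow, and 0.15 after adjustment over 9 such quantities, which were chosen after the values were seen.

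The makeup of TEAD transcripts differed between the groups in all 3 libraries of each. Tead3 held 76.6%, 78.1% and 76.9% of the summed FPKM of the 4 Tead genes in wild-type-labelled replicates 1, 2 and 3 and 57.8%, 57.1% and 51.9% in knockout-labelled replicates 1, 2 and 3. It was the most abundant of the 4 per length in every library. Tead1 went from 15.2% ± 2.07 to 28.5% ± 2.74 of the sum, and Tead2 from 5.11% ± 0.955 to 13.1% ± 0.574 (SD, n = 3). Each of these 3 shares had no overlap between the groups, with an exact permutation p of 0.1, again the smallest possible, and 0.15 adjusted. Tead4 stayed a small part at 2.46% ± 0.413 and 2.78% ± 0.924 (exact permutation p = 0.6). As single genes, Tead2 rose (edgeR log2 fold change 1.42, SE 0.30, adjusted p = 0.00474) from no more than 0.830 CPM to at least 1.66 CPM, and Tead3 fell (-0.40, SE 0.09, edgeR adjusted p = 0.00726), a call that was lost with total-count scaling (-0.11, edgeR adjusted p = 0.363). Tead4, with 7 to 17 counts in a library, was left out of the test by the low-count filter.

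**Figure D3:**
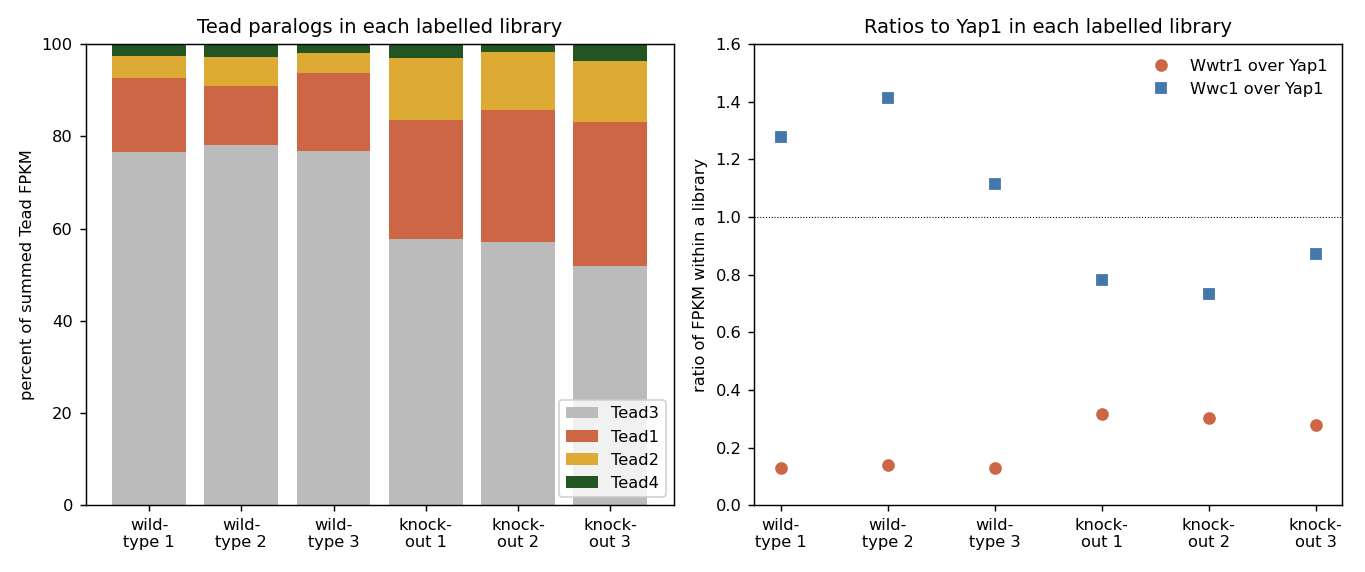
Left, the percent of the summed FPKM of Tead1 to Tead4 that each gene holds in each labelled library; right, the FPKM of Wwtr1 and of Wwc1 divided by that of Yap1 in each labelled library, with a dotted line at a ratio of 1. Tead3 holds 76.6% to 78.1% in the wild-type-labelled and 51.9% to 57.8% in the knockout-labelled libraries, and Wwc1 crosses from above to below the level of Yap1.

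The regulators did not move as a group: of 4, Ajuba rose, Wwc1 and Amotl2 fell and Lats2 did not pass. Wwc1 encodes KIBRA, a scaffold that promotes activation of the LATS kinases (chromosome 11, 35838400 to 35980527, minus strand). It was at 134, 140 and 111 CPM in the wild-type-labelled and 73.2, 68.6 and 81.9 CPM in the knockout-labelled libraries. All 3 knockout-labelled libraries were lower, by 0.78 on the log2 scale (edgeR log2 fold change -0.78, SE 0.10, adjusted p = 0.000300), and the gene stayed lower in each of 14 alternatives, at -0.49 with total-count scaling. Its paralog Wwc2 did not pass, at 0.21 (SE 0.10, edgeR adjusted p = 0.122); with total-count scaling it was called higher (0.50). The FPKM of Wwc1 was 8.56 ± 0.354 times that of Wwc2 in the wild-type-labelled and 4.33 ± 0.628 times in the knockout-labelled libraries (SD, n = 3, exact permutation p = 0.1, 0.15 adjusted).

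Wwc1 and Yap1 changed places in the order of levels per length. Chosen after the values were seen, the ratio of Wwc1 to Yap1 in FPKM was 1.28, 1.41 and 1.11 in wild-type-labelled replicates 1, 2 and 3 and 0.783, 0.732 and 0.873 in knockout-labelled replicates 1, 2 and 3. Wwc1 was thus the highest of the 10 genes in each wild-type-labelled library, at 25.1 ± 2.98 FPKM, and Yap1 in each knockout-labelled library (SD, n = 3). In the wild-type-labelled libraries Amotl2 followed at 8.92 ± 0.768 FPKM, then Ccn2, Lats2, Ccn1 and Wwtr1 at 5.62 ± 1.09, 4.31 ± 0.329, 3.46 ± 1.19 and 2.63 ± 0.0991 FPKM, each of which overlapped its neighbour. Ajuba (1.66 ± 0.329), Tead1 (0.998 ± 0.135) and Ankrd1 (0.0110 ± 0.0191 FPKM) came last, each apart from the next. In the knockout-labelled libraries Yap1 and Wwc1 (17.9 ± 1.69 FPKM) were followed by Ccn2 (12.7 ± 4.51), Amotl2 (8.52 ± 0.613) and Ccn1 (7.97 ± 0.543), which overlapped in turn, by Wwtr1 (6.73 ± 0.451), Ajuba (5.77 ± 1.08) and Lats2 (4.97 ± 0.942), which also overlapped in turn, and by Tead1 (2.42 ± 0.295) and Ankrd1 (1.51 ± 0.298 FPKM).

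Ajuba encodes a LIM protein that binds LATS kinases and restrains them (chromosome 14, 54567472 to 54577558, minus strand), and is also listed among the targets of YAP. It stood at 4.90, 6.96 and 7.45 CPM in the wild-type-labelled and 17.96, 21.95 and 14.9 CPM in the knockout-labelled libraries. The lowest knockout-labelled value was above the highest wild-type-labelled value (edgeR log2 fold change 1.51, SE 0.19, adjusted p = 0.000365). Of its relatives in the same LIM family, Limd1 had a log2 fold change of 0.07 (edgeR adjusted p = 0.400) and Wtip of 0.47 (edgeR adjusted p = 0.165). Neither passed, and with total-count scaling both were called higher, at 0.37 and 0.76. Whether Ajuba differed from them was not tested.

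Amotl2 encodes an angiomotin, a junction-associated protein that binds YAP, and is a target of YAP as well (chromosome 9, 102716672 to 102733418, plus strand). It was at 46.8, 44.9 and 52.6 CPM in the wild-type-labelled and 37.8, 34.8 and 39.8 CPM in the knockout-labelled libraries. The groups did not overlap (edgeR log2 fold change -0.36, SE 0.08, adjusted p = 0.00776), but the call was lost with total-count scaling (-0.07, edgeR adjusted p = 0.550). The paralog Amot rose from 8.59 ± 1.47 to 20.4 ± 1.65 CPM (edgeR log2 fold change 1.24, SE 0.13, adjusted p = 0.000112). Amotl1 fell short of the threshold (0.40, SE 0.15, edgeR adjusted p = 0.0529) and passed in 6 of 14 alternatives, DESeq2 not among them. Within a library, the FPKM of Amotl2 was 11.2 ± 0.357 times that of Amotl1 in the wild-type-labelled and 6.68 ± 0.847 times in the knockout-labelled libraries (SD, n = 3, exact permutation p = 0.1, 0.15 adjusted).

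Lats2, a kinase that phosphorylates YAP and TAZ and that YAP in turn induces, lies on chromosome 14 from 57689662 to 57758388 (minus strand). Its level was 27.8, 24.7 and 26.5 CPM in the wild-type-labelled and 19.4, 28.7 and 26.3 CPM in the knockout-labelled libraries. Knockout-labelled replicate 1 was the lowest of the 6, and the groups overlapped (edgeR log2 fold change -0.08, SE 0.14, adjusted p = 0.655). Without that library the log2 fold change was 0.06 (edgeR adjusted p = 0.644), and with total-count scaling 0.21 (edgeR adjusted p = 0.225). Lats1 stood at 43.0 ± 3.65 and 41.4 ± 0.791 CPM (log2 fold change -0.05, edgeR adjusted p = 0.609; called higher at 0.24 with total-count scaling). The ratio of Lats2 to Lats1 in FPKM was 0.801 ± 0.0546 and 0.781 ± 0.142 (SD, n = 3, exact permutation p = 0.9). In the annotation, 2955 of the 6971 exonic bases of Lats2 are shared with the gene model Gm49361 on the same strand, so reads there may have been lost or split by the counting, and its count is uncertain.

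Of the 3 genes counted as targets, the 2 that passed, Ankrd1 and Ccn1, were higher, and the change was steepest in Ankrd1. Amotl2, also a target but counted with the regulators, was lower. Ankrd1, which encodes a nuclear ankyrin repeat protein and is a widely used readout of YAP (chromosome 19, 36111961 to 36120099, minus strand), had 1, 0 and 0 counts in wild-type-labelled replicates 1, 2 and 3 and 41, 59 and 43 counts in knockout-labelled replicates 1, 2 and 3. That is 0.0636 CPM or less in each wild-type-labelled library and 2.03 to 2.97 CPM in the knockout-labelled libraries. Ankrd1 passed the low-count filter only through the knockout-labelled libraries, so its call as higher is not independent of that filter. The ratio of 143 counts to 1, corrected for library size, was 114 with an exact 95% counting interval of 20.1 to 4533, which covers counting error only (edgeR adjusted p = 5.97e-05). A single wild-type-labelled library's limit for a count of 0, set at 3 counts, was 0.189 to 0.192 CPM.

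Ccn1 and Ccn2 encode secreted matricellular proteins of the CCN family, of which CCN2 is known for its part in fibrosis. Ccn1 (chromosome 3, 145646976 to 145649981, minus strand) was at 10.4, 5.43 and 7.38 CPM in the wild-type-labelled and 15.4, 13.6 and 14.8 CPM in the knockout-labelled libraries. The knockout-labelled libraries were all higher and lay closer together (edgeR log2 fold change 0.91, SE 0.20, adjusted p = 0.00702), and the call held in each of 14 alternatives, with adjusted p of no more than 0.0293.

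Ccn2 (chromosome 10, 24595442 to 24598683, plus strand) was at 17.6, 15.0 and 12.2 CPM in the wild-type-labelled and 16.2, 31.9 and 34.5 CPM in the knockout-labelled libraries. Knockout-labelled replicates 2 and 3 were high and replicate 1 lay within the wild-type-labelled range, so the groups overlapped and the gene did not pass (edgeR log2 fold change 0.88, SE 0.33, adjusted p = 0.0918). Without that library the log2 fold change was 1.15 (edgeR adjusted p = 0.000863). Ccn2 also passed with total-count scaling (1.17, edgeR adjusted p = 0.0341) and with DESeq2 (0.87, DESeq2 adjusted p = 0.00196). In the other 11 of 14 alternatives it did not pass, with an edgeR adjusted p of up to 0.241. In FPKM the ratio of Ccn2 to Ccn1 was 1.72 ± 0.534 in the wild-type-labelled and 1.61 ± 0.625 in the knockout-labelled libraries (SD, n = 3, exact permutation p = 0.8). On the opposite strand, the model Gm15270 shares 665 exonic bases with Ccn2, and another, Gm20416, shares 116 with Yap1; the strand setting of the counting is not given in the sources used here, so reads of these partners cannot be told apart.

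Ccn1, Ccn2 and Ankrd1 are also known as fast-responding genes, so 10 immediate early genes were read beside them. Their summed level overlapped between the groups, at 165 to 304 CPM in the wild-type-labelled and 160 to 249 CPM in the knockout-labelled libraries. The largest part was Dusp1, named after its values were seen, at 75.4 to 172 and 39.4 to 87.4 CPM, which did not pass. Of the 9 tested, 2 were higher (Atf3 and Ier3, named after their values were seen) and 0 lower, and 7 missed the threshold, among them Fos and Egr1 (log2 fold changes -0.52 and 0.48).

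**Figure D4:**
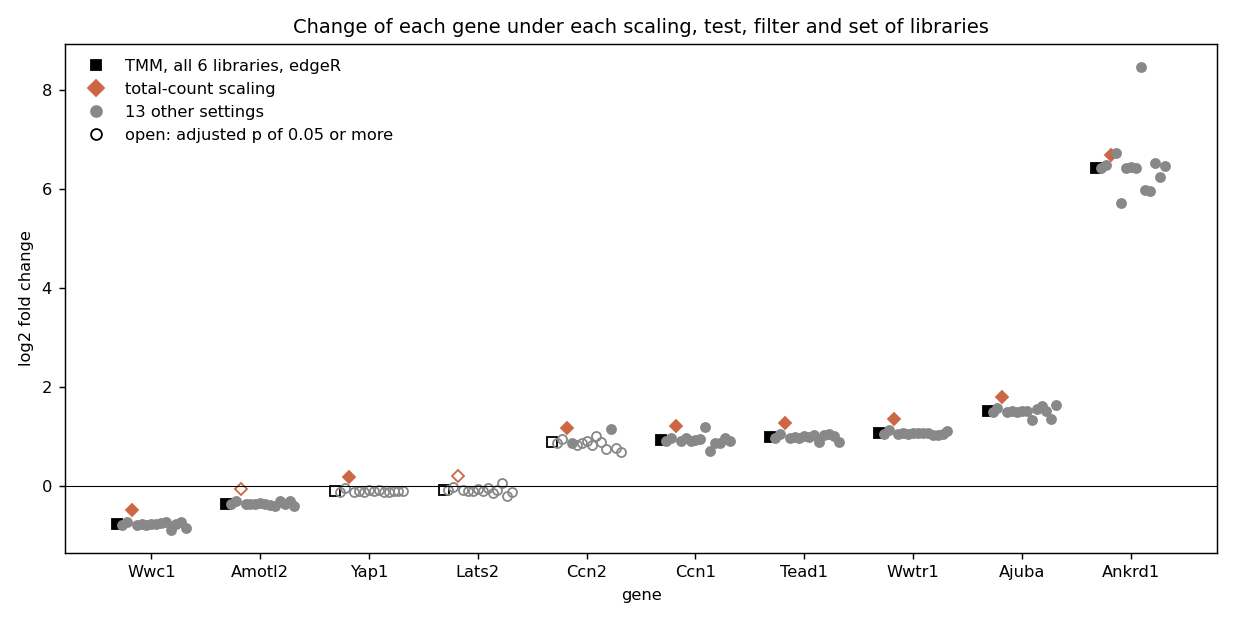
The log2 fold change of each of the 10 genes under TMM with all 6 libraries (black squares), total-count scaling (orange diamonds) and 13 other settings (grey circles); filled symbols have an adjusted p under 0.05. Wwtr1, Tead1, Wwc1, Ajuba, Ankrd1 and Ccn1 stay filled on 1 side of 0 throughout, while Yap1 crosses 0 with total-count scaling, at 0.18.

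The other genes of the pathway were read from 4 lists, which were chosen with earlier results of these data known. Each of the 10 genes stands in at least 1 of them, and Lats2, Amotl2, Ajuba and Ptpn14 stand in more than 1. Of all tested genes, 20.9% were higher and 16.3% lower with TMM. Among 12 Hippo kinases and kinase cofactors, 1 passed as higher, 0 passed as lower and 11 did not pass, with a median log2 fold change of 0.01. The exception was Map4k4, a kinase that can act on LATS beside the MST kinases, which rose from 14.0 ± 1.52 to 27.3 ± 1.17 CPM (edgeR log2 fold change 0.96, SE 0.10, adjusted p = 8e-05). The MST kinase genes Stk3 and Stk4 had log2 fold changes of 0.24 and 0.05, and their partner Sav1 of -0.06. Stk25 (-0.19) and Taok3 (-0.49) were also short of the threshold (edgeR adjusted p = 0.0591 and 0.0780). In Taok3 the wild-type-labelled libraries ranged from 50.2 to 85.6 CPM, and without replicate 3 of that group it was called lower (-0.68, edgeR adjusted p = 0.000343). Taok3 was also called lower with DESeq2 (-0.50, DESeq2 adjusted p = 0.0113), and not with total-count scaling (-0.20, edgeR adjusted p = 0.420). With total-count scaling 8 of the 12 were higher and 0 lower, where 47.1% of all tested genes were higher and 2.62% lower. The median was 0.30, against 0.30 over all tested genes under that scaling.

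Of 28 upstream regulators and scaffolds, 10 were higher and 3 lower, and 15 missed the threshold (median log2 fold change 0.10), where 20.9% of all tested genes were higher and 16.3% lower. Besides Ajuba and Amot, the higher genes included the FERM protein gene Frmd6 (0.85, SE 0.14, edgeR adjusted p = 0.00118), the apical polarity gene Patj (0.71, SE 0.09, edgeR adjusted p = 0.000382) and the tight junction gene Tjp1 (0.41, SE 0.07, edgeR adjusted p = 0.00206). Nf2, the gene of the tumour suppressor merlin, did not pass (-0.19, SE 0.10, edgeR adjusted p = 0.145). The lower genes were Wwc1, Amotl2 and, named after its value was seen, the polarity gene Scrib (-0.44). With total-count scaling 18 were higher and 1, Wwc1, was lower, where 47.1% and 2.62% of all tested genes were called, and the median was 0.39 against 0.30 over all tested genes. Among the effectors and cofactors, 4 of 7 tested genes were higher (5 with total-count scaling) and 1, Tead3, was lower (0 with total-count scaling). The cofactor gene Vgll3 rose (1.35, SE 0.44, edgeR adjusted p = 0.0351), a call lost with limma-voom (adjusted p = 0.0803) and without any 1 of the 3 wild-type-labelled libraries or of knockout-labelled replicates 2 and 3 (edgeR adjusted p from 0.0558 to 0.114). Vgll4, whose product competes with YAP for TEAD, did not pass (-0.29, SE 0.11, edgeR adjusted p = 0.0548). It was called lower in 5 of 14 alternatives, among them RLE scaling (edgeR adjusted p = 0.0483), and was at 0.0092 with total-count scaling. Vgll1 and Vgll2 were not found in the count table.

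In the list of 23 YAP and TEAD targets, 12 of 21 tested genes were higher and 3 lower, and 6 missed the threshold. Of all tested genes, 20.9% were higher and 16.3% lower. The median log2 fold change was 0.88 in the list against 0.01 over all tested genes. The list was chosen with earlier results of these data known, so this difference is not a test of enrichment. Leaving out the 6 genes that are described above as single genes, 9 of 15 were higher and 2 lower, with a median of 0.83. Myof, which encodes the membrane repair protein myoferlin, rose from 3.92 ± 0.809 to 19.0 ± 1.94 CPM (edgeR log2 fold change 2.28, SE 0.16, adjusted p = 7.29e-06). Ccdc80, which encodes a secreted matrix protein, rose from 10.1 ± 1.72 to 38.9 ± 7.35 CPM (1.95, SE 0.17, edgeR adjusted p = 0.000112). The growth factor gene Tgfb2 was at 0.403 ± 0.314 and 3.17 ± 0.352 CPM (2.96, SE 0.40, edgeR adjusted p = 0.000435), and the tissue factor gene F3 at 1.76 ± 0.411 and 4.70 ± 0.699 CPM (1.42, SE 0.23, edgeR adjusted p = 0.00121). Tgfb2, like Ankrd1, passed the low-count filter only because of its knockout-labelled counts. The lower genes were Amotl2 and, named after their values were seen, Nt5e (-0.64) and Dock5 (-0.29). With total-count scaling 14 of 21 were higher and 0 lower, where 47.1% of all tested genes were higher and 2.62% lower. The median was then 1.17 against 0.30 over all tested genes. Foxf2 had 0 counts in every library and, like Fjx1, was not tested.

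Several markers of cell types other than hepatocytes were also higher in the knockout-labelled libraries, and their part in the values above was not tested. The duct marker Krt19 had a log2 fold change of 3.53 and Epcam of 3.41, the mesenchymal genes Col1a1 and Pdgfrb of 3.03 and 1.53, and the mesothelial gene Msln of 2.82, while Alb fell (-0.79). Of 5 tested smooth muscle markers 2 were higher, Smtn (0.62, edgeR adjusted p = 0.0209) and Des (0.61, edgeR adjusted p = 0.0176), both named after their values were seen, and Myh11 did not pass (0.20). Of the 10 genes, those called higher had log2 fold changes between 0.91 for Ccn1 and 1.51 for Ajuba, besides Ankrd1 with its near-zero count in the wild-type-labelled libraries. Which cells carried these transcripts was not measured.

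**Figure D5:**
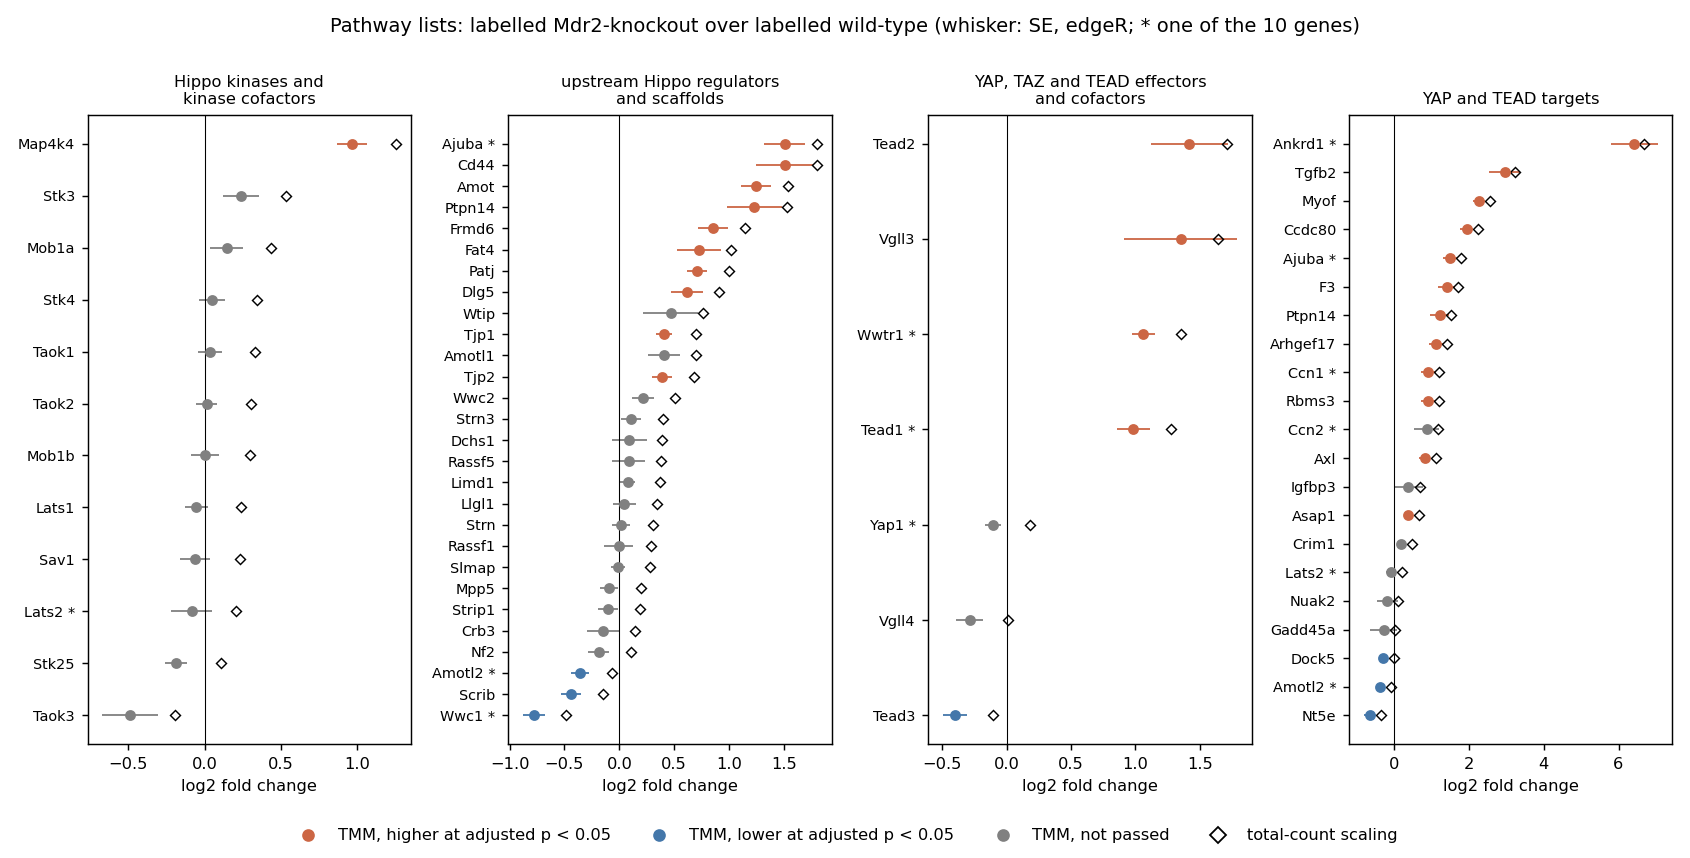
The log2 fold change (knockout-labelled over wild-type-labelled) of every tested gene in the 4 pathway lists, with its SE, by edgeR with TMM (circles, coloured by call) and with total-count scaling (open diamonds); an asterisk marks the 10 genes. In the kinase list 1 gene of 12 passes with TMM and in the target list 15 of 21, against 37.1% of all tested genes. Total-count values lie to the right throughout.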

How the data were processed

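RNA of mouse liver was measured in 6 libraries. The authors deposited whole-number read counts per gene symbol, and FPKM for the same genes, which were proportional to the counts within each gene. The submitters' processing notes name the build mm10 and, with no role or version, the tools SAMtools, StringTie, Bowtie2, Cufflinks, HTSeq, HISAT2, DESeq and Trimmomatic. The annotation used, and whether counting was stranded, is not given in the sources used here. Columns beginning with M were read as Mdr2-knockout, since M begins only those titles, and those beginning with N as wild-type, the group left over, and all directions depend on this.

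The test was that of edgeR 4.0.16 (R 4.3.3) (filterByExpr with minimum count 10 and minimum total 15, TMM, robust quasi-likelihood, group as the only term, Benjamini-Hochberg over 12612 genes, threshold 0.05). SE is the log2 fold change divided by the square root of F. Levels between genes were compared in FPKM. The fit was tested on simulated data. Same-group libraries differed beyond counting noise (chi-square over its degrees of freedom 16.85 or more). The 10 genes, the lists and the naming rule were chosen with earlier results of these data known. Named were the 10 genes, Abcb4, their paralogs and core Hippo genes, the 4 genes with the lowest p in every list, and 7 cell type markers. Alternatives were limma-voom (limma 3.58.1), DESeq2 1.42.0, other scalings (total-count, upper-quartile, RLE), testing without the low-count filter or with a minimum mean of 1 CPM, a replicate block, and leaving out each library. Positions are from GENCODE M21 (GRCm38) and promoters from RefSeq. Comparison of protein sequences was not carried out. A cholangiocyte marker of the fixed list is not reported here.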

Additional observations from a re-analysis of the deposited data

How the results depend on the processing

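Across 14 alternatives, Wwtr1, Tead1, Wwc1, Ajuba, Ankrd1 and Ccn1 kept their direction and their call. The other members changed as given above: Amotl2 lost its call with total counts, Ccn2 gained one in 3 alternatives, Yap1 turned to 0.18 with total counts, and Lats2 to 0.21 with total counts (from -0.207 to 0.0625 when 1 library was left out, the latter without knockout-labelled replicate 1). Total-count scaling also turned the log2 fold changes of Lats1 (0.24), Sav1 (0.23), Nf2 (0.10), Vgll4 (0.0092) and Stk25 (0.11), and Lats1 was at 0.0017 with upper-quartile scaling. Leaving out 1 library in turn took Lats1 from -0.115 to 0.0042, Stk4 from -0.016 to 0.0997 and Sav1 from -0.134 to 0.0015. Vgll4 was called lower with RLE factors, without the low-count filter, with the replicate block and without wild-type-labelled replicate 1 or knockout-labelled replicate 3, and Taok3 with the replicate block (-0.46, edgeR adjusted p = 0.0478). Total-count scaling left 7 members higher in place of 5 and 1 lower in place of 2, and gave 8 higher kinases in place of 1, 18 higher and 1 lower regulators in place of 10 and 3, 0 lower effectors in place of 1 and 0 lower targets in place of 3. Over all tested genes it gave 47.1% higher in place of 20.9% and 2.62% lower in place of 16.3%. Kinases called lower numbered 1 in place of 0 with RLE factors, DESeq2 and the replicate block, and effectors called lower 2 in place of 1 with RLE factors, without the low-count filter and with the replicate block. Leaving out each library in turn gave 0 to 1 lower kinases and 1 to 2 lower effectors. Calls over all genes ran from 3541 to 6273 in the alternatives, against 4685. The deviations of same-numbered libraries from their group means correlated at 0.114, 0.0635 and -0.0776 across genes. Wild-type-labelled replicates 1 and 2 correlated best with their own number, and replicate 3 did not. These values cannot tell whether the libraries were paired. With the replicate block 4568 genes were called, and the 10 genes kept their calls. Depth limits Ankrd1 in the wild-type-labelled libraries, Tead2, Tead4, Vgll3 and Tgfb2, whose counts were low. Of these, Ankrd1, Tead2, Vgll3 and Tgfb2 passed the low-count filter only because of their knockout-labelled counts.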
